A study of Homo sapiens with 8 samples.

Results

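Genes whose level differed between stiff and soft gels in the same direction in both gel systems of the study are described here. They were chosen by setting each of the 4 stiff libraries against the soft library of the same gel system and the same trial, and keeping every gene whose 4 paired differences in log2(normalized count + 1) had 1 sign. Genes entered if 2 or more of the 8 libraries reached a normalized count of 10. Of the 13369 that did, 1848 were higher in the stiff gel of all 4 pairs (13.8% of genes tested) and 2099 were lower (15.7%), which makes 3947 in all. These differences chose the genes, so the counts describe the data and support nothing by themselves.

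MCF10A cells, a spontaneously immortalized human mammary epithelial line that is not malignant, were cultured inside hydrogels for 7 days before RNA-seq, with 2 libraries per gel. Interpenetrating networks (IPNs) of alginate and reconstituted basement membrane (rBM) were soft without a crosslinker and stiff once crosslinked with calcium. In the collagen system the soft gel (soft col:rBM) mixed type 1 collagen (col-1) with rBM, while the stiff gel (stiff col) is named for col-1 alone. The study names stiff col against soft col:rBM as a comparison of col-1 stiffness, and elsewhere writes of col-1 density. The methods give a single final rBM concentration for all experiments. The text used here does not give the amount of col-1 in each gel, or state whether stiff col held rBM. Stiffness therefore cannot be told apart from calcium in the IPNs, or from col-1 density and any difference in rBM content in the collagen gels. All libraries came from the same cell line, so no difference of genotype enters. Replicate numbers are called trials, as the methods describe 2 independent trials. The labels do not state how many gels were pooled per library. In bulk RNA, fewer cells of a type and less RNA per cell cannot be told apart.

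The deposited values summed to between 14306848 and 17999273 normalized counts per library. They came from an estimated 13065615 to 18583116 counted reads or read pairs, and 3 of these corresponded to between 2.41 and 3.73 normalized counts. In all 4 pairs the sum was lower in the stiff gel. Ribosomal protein genes held 16.3% and 14.6% of the counts in soft IPNs (trials 1 and 2), 11.9% and 10.3% in stiff IPNs, 14.5% and 12.3% in soft col:rBM and 14.9% and 12.1% in stiff col. When libraries were scaled to equal sums, 3648 genes were higher and 873 lower in all 4 pairs, and the median difference of all genes moved to 0.16. The 11 basal epithelial markers summed to between 157302 and 224872 normalized counts in soft gels and between 128136 and 235512 in stiff gels. Fibroblast markers summed to 937 to 1658 in soft and 1515 to 2015 in stiff gels, and leukocyte markers to 1446 to 5179 and 526 to 4609. PTPRC, AIF1, MS4A1 and NKG7 of 9 leukocyte markers and COL1A2 and THY1 of 9 fibroblast markers were listed at 0 in every library. A single leukocyte marker, CD68, held much of the leukocyte sum. It was at 4222 and 2092 in soft IPNs, 1220 and 324 in stiff IPNs, 5017 and 1348 in soft col:rBM and 4360 and 990 in stiff col.

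Cells sense a stiff matrix through integrins and focal adhesions, which couple the matrix to the actin cytoskeleton. In flat culture this is known to send the coactivators YAP and TAZ to the nucleus, where they bind TEAD factors and raise targets such as CTGF and CYR61. Epithelial cells also run programmes that are not specific to matrix, among them NF-kB signalling, which raises chemokines and acute phase proteins, the NRF2 response to oxidants, the hypoxia response and the sterol response.

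The promoters of a few genes of these programmes are shown, so that their upstream sequence can be read beside their values. The genes shown were higher or lower in all 4 pairs, and each held a match to the letters given below. CXCL1, BIRC3, LCN2 and CXCL8 stand for NF-kB and cytokine genes, GCLM for the NRF2 response and ENO2 for hypoxia and glycolysis. Each line gives the 250 bases before the start site from RefSeq (GRCh38.p14), read along the gene. Capitals mark matches on either strand to GGGNNNTTCC (NF-kB), TGANTCA (AP-1), TGACNNNGC (core of the NRF2-bound antioxidant element) or ACGTG (core of the hypoxia element).
CXCL1, chr4:73869143-73869392, plus strand: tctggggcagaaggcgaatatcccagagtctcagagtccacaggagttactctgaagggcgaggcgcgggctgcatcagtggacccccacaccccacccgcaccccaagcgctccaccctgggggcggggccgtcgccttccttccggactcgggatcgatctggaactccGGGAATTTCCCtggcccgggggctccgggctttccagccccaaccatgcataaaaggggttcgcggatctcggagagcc
BIRC3, chr11:102317234-102317483, plus strand: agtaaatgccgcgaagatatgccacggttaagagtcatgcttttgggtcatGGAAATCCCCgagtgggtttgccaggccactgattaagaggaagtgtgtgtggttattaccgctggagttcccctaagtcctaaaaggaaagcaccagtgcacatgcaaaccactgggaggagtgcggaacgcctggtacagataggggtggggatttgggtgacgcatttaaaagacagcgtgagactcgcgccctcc
LCN2, chr9:128149203-128149452, plus strand: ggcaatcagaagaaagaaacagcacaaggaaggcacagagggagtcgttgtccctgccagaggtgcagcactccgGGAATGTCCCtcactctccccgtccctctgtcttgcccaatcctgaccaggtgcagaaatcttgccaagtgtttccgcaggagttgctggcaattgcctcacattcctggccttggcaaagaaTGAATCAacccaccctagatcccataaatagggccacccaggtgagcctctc
CXCL8, chr4:73740319-73740568, plus strand: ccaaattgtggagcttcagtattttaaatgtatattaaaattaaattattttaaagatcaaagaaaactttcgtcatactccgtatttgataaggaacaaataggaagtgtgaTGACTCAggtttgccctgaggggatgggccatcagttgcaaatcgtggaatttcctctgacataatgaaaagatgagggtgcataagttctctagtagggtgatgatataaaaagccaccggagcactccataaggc
GCLM, chr1:93909431-93909680, minus strand: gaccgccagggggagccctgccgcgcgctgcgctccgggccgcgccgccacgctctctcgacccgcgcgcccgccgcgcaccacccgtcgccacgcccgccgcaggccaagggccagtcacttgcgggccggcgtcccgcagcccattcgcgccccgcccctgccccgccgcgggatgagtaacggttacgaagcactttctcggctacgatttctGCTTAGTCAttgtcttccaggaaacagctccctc
ENO2, chr12:6914330-6914579, plus strand: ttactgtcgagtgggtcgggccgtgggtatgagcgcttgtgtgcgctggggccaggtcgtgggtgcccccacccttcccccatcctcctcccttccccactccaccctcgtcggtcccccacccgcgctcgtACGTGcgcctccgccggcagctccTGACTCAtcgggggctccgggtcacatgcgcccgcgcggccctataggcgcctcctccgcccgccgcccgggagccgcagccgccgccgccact
CXCL1 held the NF-kB letters from 79 bases before its start site, with a second match on the other strand from 78 bases that overlaps the first. BIRC3 held them from 199 bases and LCN2 from 175 bases before the start, both on the opposite strand. LCN2 and CXCL8 held the AP-1 letters, which read alike on both strands, from 52 and 137 bases before the start. CXCL8 held no full match to the NF-kB letters, but its bases tggaatttcc differ from them in the first base only. Such near matches are not marked. GCLM held the antioxidant element core at 34 bases, and ENO2 the hypoxia element core at 118 bases and the AP-1 letters at 94 bases. Other genes of the same programmes or named below held none of these letters in the 250 bases before the start. Among them were NQO1, EGLN3, HMGCS1, CFB, S100A8, S100A9 and KYNU, also higher or lower in all 4 pairs. Windows of 300 bases (250 before and 50 after the start) were found for 10404 genes tested, of which 7.59% held the NF-kB letters, 4.84% AP-1, 15.1% the antioxidant element core and 26.4% the hypoxia element core. A window was matched for 77.8% of genes tested, 78.4% of those higher and 79.8% of those lower, and motif shares of higher and lower genes were not compared. A match is a string of letters and not evidence of binding.

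The comparison of stiff with soft gels asked which transcripts change with stiffness in both gel systems. With the pair as a block, 7 genes passed an adjusted p of 0.05 upwards (0.0524% of genes tested) and none downwards (0.0%), by limma over 13369 genes. They were S100A8, S100A9, KYNU, SAA1, BIRC3, CSGALNACT1 and NFKBIZ, and each was 2.07-fold to 3.27-fold higher in stiff gels on the mean. At an unadjusted p under 0.05 there were 2324 genes. Without any block no gene passed and 923 had an unadjusted p under 0.05. With 1 mean per gel and the trial as a block, 42 genes passed upwards (0.314%) and 38 downwards (0.284%), including all 7 named here. In that fit none of the 7 passed in collagen gels alone.

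S100A8 and S100A9 are calcium-binding proteins that pair as calprotectin, which is abundant in neutrophils and in stressed epithelium. In normalized counts (trial 1, then trial 2), S100A8 stood at 623 and 877 in soft IPNs, 2109 and 3930 in stiff IPNs, 241 and 332 in soft col:rBM and 629 and 964 in stiff col. Every stiff gel was above its own soft gel, but stiff col overlapped with soft IPN, since both collagen gels held less S100A8. The mean difference was 1.71 ± 0.14 (log2, SE, n = 4 pairs), 3.27-fold, with an adjusted p of 0.0122. S100A9 stood at 1673 and 1720 in soft IPNs, 4303 and 5671 in stiff IPNs, 731 and 742 in soft col:rBM and 1876 and 1733 in stiff col. All 4 stiff libraries were above all 4 soft ones, by a narrow margin of 1733 to 1720, and the mean difference was 1.42 ± 0.11 (adjusted p = 0.0122). The genes lie on chromosome 1 (hg19, S100A8 at chr1:153362508-153363549 on the minus strand, S100A9 at chr1:153330330-153333499 on the plus strand).

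KYNU encodes kynureninase, an enzyme of tryptophan breakdown. Its value was 2208 and 2096 in soft IPNs, 4756 and 5683 in stiff IPNs, 1372 and 1612 in soft col:rBM and 3082 and 3311 in stiff col. The groups did not overlap, and the 4 paired differences were close to each other, from 1.04 to 1.44 (mean 1.19 ± 0.10, adjusted p = 0.0125). CSGALNACT1 encodes an enzyme that starts chondroitin sulfate chains. It held 162 and 141 in soft IPNs, 455 and 389 in stiff IPNs, 171 and 112 in soft col:rBM and 342 and 249 in stiff col. Again all stiff libraries were above all soft ones, with a mean difference of 1.27 ± 0.14 (adjusted p = 0.0367).

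SAA1, an acute phase protein, was at 2126 and 2361 in soft IPNs, 4218 and 6114 in stiff IPNs, 373 and 696 in soft col:rBM and 808 and 1746 in stiff col. Each stiff gel was above its partner (mean 1.20 ± 0.10, adjusted p = 0.0125), although both stiff col libraries were below both soft IPN libraries. BIRC3, an inhibitor of apoptosis that NF-kB is known to raise, was at 1836 and 1387 in soft IPNs, 3446 and 3769 in stiff IPNs, 674 and 1013 in soft col:rBM and 1935 and 2130 in stiff col. Its groups did not overlap (mean 1.24 ± 0.12, adjusted p = 0.0280). NFKBIZ encodes a nuclear regulator of NF-kB. It was at 314 and 240 in soft IPNs, 625 and 598 in stiff IPNs, 329 and 252 in soft col:rBM and 651 and 473 in stiff col, with no overlap (mean 1.05 ± 0.11, adjusted p = 0.0367).

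**Figure D1:**
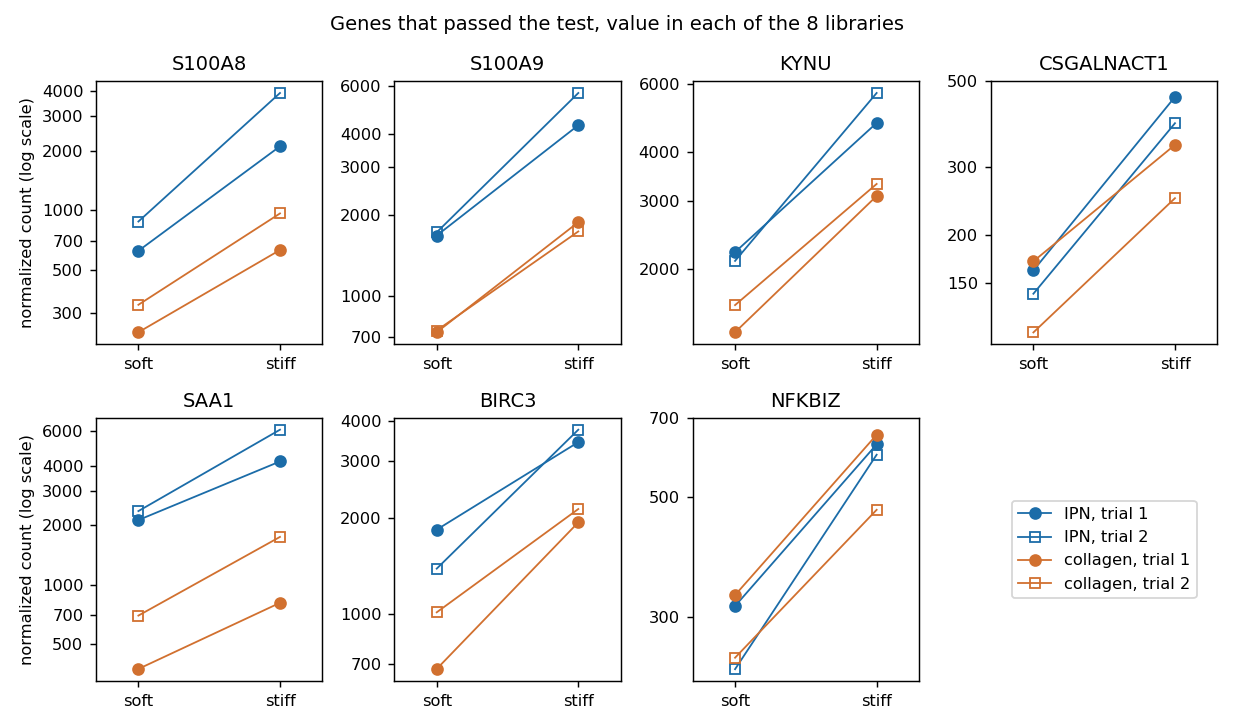
Normalized counts (log axis) of the 7 genes that passed the test, in the soft and the stiff gel, 1 line per pair. Colour marks the gel system and open squares mark trial 2, and all 4 lines rise in every panel while the collagen lines of S100A8 and SAA1 run below the IPN lines.

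In all, 270 genes (2.02%) had all 4 stiff libraries above all 4 soft ones and 334 (2.5%) had all 4 below. The calls also depended on the libraries. Leaving out soft IPN or stiff IPN replicate 1 left 0 genes upwards, and leaving out soft IPN or stiff IPN replicate 2 gave 12 upwards and 2 downwards. It was 1 gene (S100A8) without soft col:rBM replicate 1 and 3 without stiff col replicate 1.

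The other genes that were higher in all 4 pairs did not pass. The naming rule took the 15 genes with the largest smallest difference in each direction, among genes with a mean of at least 50. Besides S100A8, S100A9, KYNU, CSGALNACT1, SAA1 and BIRC3, they were TAGLN, LIF, CXCL8, CXCL1, SAA2, VNN1, LOC344887, CFB and LCN2.

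CXCL8 and CXCL1 encode chemokines that attract neutrophils. CXCL8 was at 848 and 418 in soft IPNs, 1973 and 3004 in stiff IPNs, 608 and 288 in soft col:rBM and 2356 and 957 in stiff col. The stiff libraries were all above the soft ones, and the paired differences ran from 1.22 to 2.84 (mean 1.94 ± 0.24, adjusted p = 0.0868). CXCL1 was at 386 and 508, 1188 and 3191, 257 and 282, and 594 and 1038 in the same order, also without overlap (mean 1.84 ± 0.21, adjusted p = 0.0800). With the trial block their adjusted p values were 0.0367 and 0.0131.

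LIF, a cytokine of the IL6 family, had paired differences of 1.49 and 3.54 in IPNs and 1.25 and 1.32 in collagen gels (adjusted p = 0.206). LCN2, an iron-binding protein of innate defence, was at 26 and 20 in soft IPNs, 258 and 441 in stiff IPNs, 9 and 8 in soft col:rBM and 18 and 23 in stiff col. Its mean difference was 2.50 ± 0.57 (adjusted p = 0.215), and the IPN differences of 3.26 and 4.4 were far above those in collagen, 0.93 and 1.42. The test of the difference between gel systems gave an adjusted p of 0.180 for LCN2. CFB, which encodes complement factor B, went the other way, with 0.97 and 1.46 in IPNs and 2.30 and 1.69 in collagen gels. Its shared stiffness effect had an adjusted p of 0.0810, and the difference between systems one of 0.443.

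SAA2, the neighbour and near copy of SAA1 on chromosome 11, had a mean difference of 2.04 ± 0.32 (adjusted p = 0.148). Reads that fit both copies may have been dropped or split, so both values are uncertain. VNN1, a pantetheinase, was at 167 and 134 in soft IPNs, 591 and 762 in stiff IPNs, 138 and 160 in soft col:rBM and 292 and 414 in stiff col (1.69 ± 0.22, adjusted p = 0.0868). LOC344887 had a mean difference of 1.73 ± 0.28 (adjusted p = 0.148). TAGLN, an actin-binding protein of contractile cells, was at 16 and 64 in soft IPNs, 111 and 2728 in stiff IPNs, 12 and 29 in soft col:rBM and 40 and 100 in stiff col. Its mean difference was 2.88 ± 0.62 (adjusted p = 0.213), and the IPN pair of trial 2 stood out with 5.39 against 1.66 to 2.72 in the others.

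No gene that was lower in all 4 pairs passed with the pair block. Genes given here from the naming rule were CASP14, ATP2C2, MMP1, SLAMF9, CUX2, EGLN3, ECM1, SLC6A8, RIMS3, ENO2, PGF, AQP9, TREM1 and ITGB4. CASP14, a caspase of cornifying keratinocytes, was at 1625 and 2005 in soft IPNs, 322 and 13 in stiff IPNs, 2798 and 865 in soft col:rBM and 522 and 204 in stiff col. All stiff libraries were below all soft ones, and the mean difference was -3.50 ± 0.98 (adjusted p = 0.237), pulled by -7.16 in the IPN pair of trial 2. MMP1, the interstitial collagenase, was at 76 and 86, 28 and 5, 142 and 77, and 32 and 14 in the same order (-2.44 ± 0.38, adjusted p = 0.148). These groups did not overlap either. EGLN3 and ENO2 are described with the hypoxia genes.

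ATP2C2, a calcium and manganese pump of the secretory pathway, was at 236 and 130 in soft IPNs, 21 and 3 in stiff IPNs, 351 and 70 in soft col:rBM and 83 and 20 in stiff col. Stiff col replicate 1 overlapped with soft col:rBM replicate 2, and trial 2 was lower throughout. Its mean difference was -3.07 ± 0.52 (adjusted p = 0.168, 0.00950 with the trial block). CUX2, a homeobox factor, was at 157 and 114, 74 and 25, 312 and 146, and 112 and 44 in the same order (-1.60 ± 0.21, adjusted p = 0.0868).

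ITGB4, the integrin chain of hemidesmosomes that binds laminin, was among the most abundant. It was at 43446 and 36407 in soft IPNs, 21849 and 9669 in stiff IPNs, 59921 and 27008 in soft col:rBM and 33628 and 15995 in stiff col. Each stiff gel was below its partner by 0.76 to 1.91 (mean -1.12 ± 0.22, adjusted p = 0.193, 0.0400 with the trial block). SLC6A8, the creatine transporter, was at 5378 and 7283, 2624 and 1393, 6573 and 4367, and 2855 and 2395 in the same order, without overlap (-1.37 ± 0.24, adjusted p = 0.177). For TREM1, a receptor best known on myeloid cells, the mean difference was -1.45 ± 0.40 (adjusted p = 0.229). The other named genes had mean differences of -2.99 (SLAMF9), -1.68 (ECM1), -1.21 (RIMS3), -2.02 (PGF) and -1.04 (AQP9).

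**Figure D2:**
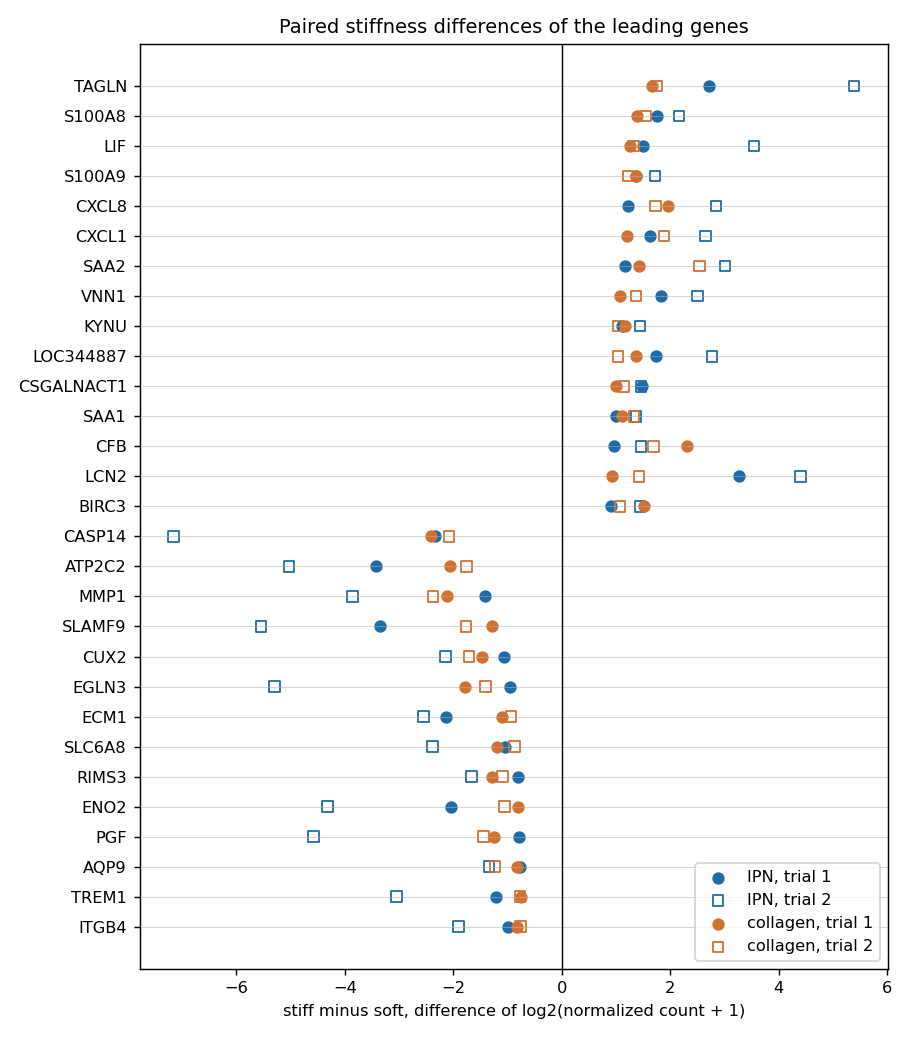
Stiff minus soft difference of log2(normalized count + 1) for the named genes with the largest smallest difference in each direction. Each gene has 4 points, 1 per pair, and the IPN pair of trial 2 lies farthest out for most of them, as for CASP14 at -7.16 and TAGLN at 5.39.

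The size of the response differed between pairs. Across all genes the SD of the differences was 0.58 and 0.863 in IPNs (trials 1 and 2) and 0.439 and 0.366 in collagen gels. The IPN pair of trial 2 gave the largest of the 4 differences in 59.4% of the higher and 59.6% of the lower genes, and a collagen pair gave the smallest in most of them. Median differences of the higher genes were 0.337 and 0.546 in IPNs and 0.226 and 0.212 in collagen gels, and those of the lower genes -0.337, -0.466, -0.177 and -0.186. Without the IPN pair of trial 2, 2586 genes were higher and 2794 lower in all 3 other pairs (19.3% and 20.9% of genes tested).

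With the trial block, 511 genes passed in IPNs alone (3.82%), while none passed in collagen gels, where 497 had an unadjusted p under 0.05. The difference between gel systems passed for 2 genes (0.015%), neither of them of 1 sign throughout. Across genes, which are not independent replicates, the paired differences correlated with r = 0.448 within IPNs, 0.348 within collagen gels and 0.0917, 0.144, 0.2 and 0.285 between systems. At the edge of the rule, UTP6 was just inside on the higher side with a difference of 0.001 in the collagen pair of trial 2, and SH3KBP1 was just outside with -0.001 in the IPN pair of trial 2. On the lower side BTF3 was just inside, with 10549 against 10550 in the collagen pair of trial 2, and VIM just outside, with 18460 against 18444.

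**Figure D3:**
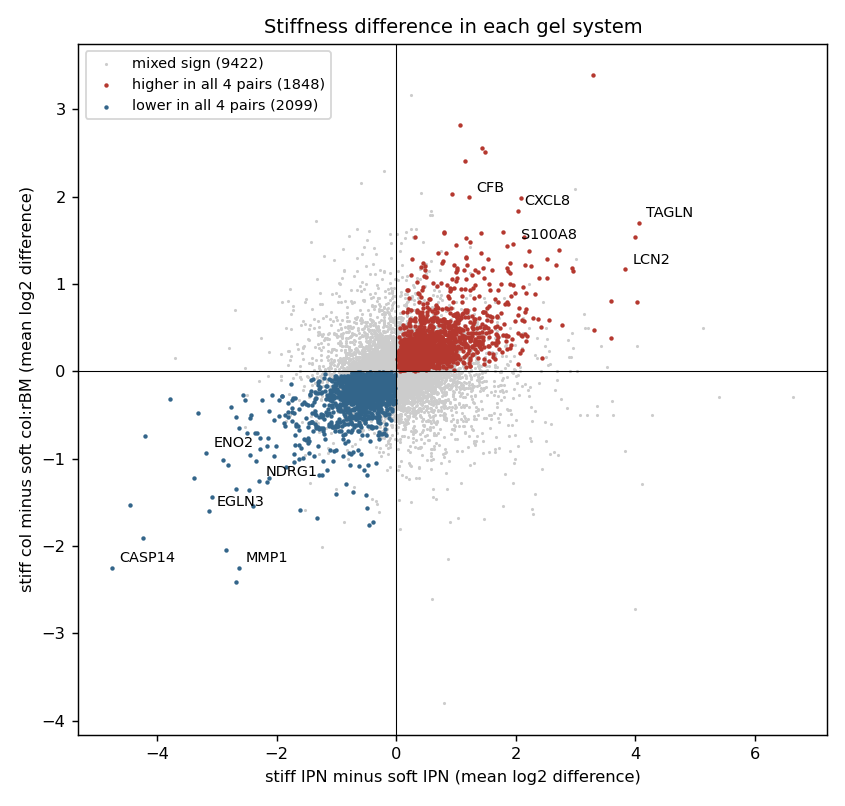
Mean stiffness difference in IPNs (horizontal) against collagen gels (vertical), 1 point per gene tested. Genes of 1 sign in all 4 pairs fill the upper right (1848) and lower left (2099), and they reach farther along the IPN axis than along the collagen axis.

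NF-kB and cytokine genes were higher or mixed. Of 29 tested, 16 were higher in all 4 pairs (55.2%, against 13.8% of all genes) and 0 lower (against 15.7%). The median difference was 0.71, against -0.002 over all genes. Of these 29, 3 passed with the pair block (SAA1, BIRC3 and NFKBIZ) and 10 with the trial block, all upwards, and 8 had all stiff libraries above all soft ones. Over all genes tested, 0.0524% passed upwards with the pair block and 0.314% with the trial block, and 2.02% had all stiff libraries above. The medians by pair were 0.46 and 0.78 in IPNs and 0.83 and 0.47 in collagen gels. Across the rescalings 16 to 18 were higher and 0 lower, and 21 were higher in the 3 pairs without IPN trial 2. The leading members LIF, CXCL8 and CXCL1 are given above. The 13 others had mixed signs, among them the transcription factor subunit NFKB1 (0.13, but -0.02 with a correction for GC content) and the inhibitor NFKBIA (0.01), named after their values were seen.

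The NRF2 response, which makes glutathione and detoxifies quinones, had 18 of 25 genes higher and 1 lower, with a median of 0.34. These were 72.0% and 4.0% of the list, against 13.8% and 15.7% of all genes. GCLM, a subunit of the enzyme that starts glutathione synthesis, was at 230 and 210 in soft IPNs, 426 and 463 in stiff IPNs, 210 and 286 in soft col:rBM and 346 and 442 in stiff col. No stiff library overlapped with a soft one (0.84 ± 0.13, adjusted p = 0.148). NQO1, a quinone reductase, was at 3291 and 3662, 5726 and 7963, 2815 and 3821, and 4062 and 5566 in the same order, again without overlap (0.75 ± 0.13, adjusted p = 0.153). AKR1C2, an aldo-keto reductase with close paralogs among which reads could be split, had a mean difference of 1.08 ± 0.23 (adjusted p = 0.213). The 1 lower gene was KEAP1 (-0.20), the known repressor of NRF2. None of the list passed with the pair block, and GCLM and NQO1 passed with the trial block (adjusted p = 0.0495 and 0.0329). Over all genes tested, 0.314% passed upwards with the trial block.

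For interferon response genes, 13 of 32 were higher (40.6%, against 13.8% of all genes) and 0 lower (against 15.7%), with a median of 0.57. ISG15, a ubiquitin-like modifier, was at 34 and 45 in soft IPNs, 108 and 511 in stiff IPNs, 38 and 46 in soft col:rBM and 59 and 68 in stiff col. All stiff libraries were above the soft ones, but the collagen differences were 0.62 and 0.55 against 1.64 and 3.48 in IPNs (adjusted p = 0.230). IFIT3 and IFIT2, which bind viral RNA, had mean differences of 1.1 and 1.17 (adjusted p = 0.217 and 0.228). MHC class I and antigen processing genes had 7 of 18 higher (38.9%) and 1 lower (5.56%), with a median of 0.18. They were led by their activator NLRC5 (1.24 ± 0.29, adjusted p = 0.213).

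Cholesterol and fatty acid synthesis genes had 16 of 32 higher and 2 lower (median 0.28), against 13.8% and 15.7% of all genes. HMGCS1, an early enzyme of the mevalonate route, was at 1657 and 1762 in soft IPNs, 4171 and 9096 in stiff IPNs, 1673 and 1486 in soft col:rBM and 3142 and 2393 in stiff col. The groups did not overlap (1.32 ± 0.26, adjusted p = 0.206). IDI1 and CYP51A1, later enzymes of the route, had mean differences of 0.99 and 0.46 (adjusted p = 0.228 and 0.223). The 2 lower genes were SREBF1 (-0.24), a transcription factor of the route, and ACACA (-0.21), which starts fatty acid synthesis.

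Squamous differentiation genes had 5 of 21 higher (23.8%, against 13.8% of all genes) and 0 lower (against 15.7%), with a median of 1.33. The medians by pair were 2.15 and 2.04 in IPNs but -0.62 and 0.49 in collagen gels, so most of this list was not shared. S100A8, S100A9 and SPRR1A were the leading shared members, and SPRR1A, a cornified envelope precursor, was at 23 and 65, 242 and 397, 5 and 8, and 6 and 37 (2.06 ± 0.47, adjusted p = 0.213). Heat shock chaperones had 9 of 26 higher (34.6%) and 2 lower (7.69%), with a median of 0.19. Their medians by pair were 0.28 and 0.45 in IPNs but 0.0 and -0.01 in collagen gels. Cell death genes had 10 of 33 higher (30.3%) and 2 lower (6.06%), with BIRC3 and CASP14 at the ends.

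Hypoxia and glycolysis genes had 24 of 35 lower (68.6%, against 15.7% of all genes) and 0 higher (against 13.8%) in all 4 pairs. Their median was -0.64. EGLN3, a prolyl hydroxylase that HIF is known to raise, was at 1280 and 4742 in soft IPNs, 663 and 119 in stiff IPNs, 1719 and 2676 in soft col:rBM and 496 and 1004 in stiff col. All stiff libraries were below all soft ones (-2.36 ± 0.79, adjusted p = 0.256). ENO2, a glycolytic enolase, was at 545 and 520, 132 and 25, 574 and 166, and 330 and 79 in the same order, with some overlap (-2.06 ± 0.59, adjusted p = 0.231, 0.0495 with the trial block). ADM, the vessel-dilating peptide adrenomedullin, was at 604 and 2630, 262 and 257, 766 and 1657, and 481 and 923 (-1.52 ± 0.45, adjusted p = 0.235). NDRG1, a stress and hypoxia gene that is also on the YAP list, was at 27790 and 84148, 18632 and 5153, 23366 and 36173, and 8596 and 17279, without overlap (-1.78, adjusted p = 0.240). None passed with the pair block and 2 with the trial block, while 8 of 35 had all stiff libraries below all soft ones. Over all genes tested, 0.284% passed downwards with the trial block and 2.5% had all stiff libraries below. The medians were -0.29 and -1.78 in IPNs and -0.33 and -0.30 in collagen gels, so 1 pair set much of the size. Without it, 24 of 35 were lower in the 3 others and 1 higher, with a median of -0.38. With equal library sums 18 were lower and 0 higher, against 873 and 3648 of all 13369 genes tested. HIF1A itself had mixed signs, with a mean difference of 0.17, or -0.01 with a correction for GC content.

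Cytosolic ribosomal protein genes had 38 of 75 lower (50.7%, against 15.7% of all genes) and 1 higher (1.33%, against 13.8%), with a median of -0.37. The medians were -0.66 and -0.72 in IPNs but 0.00 and -0.07 in collagen gels, and the difference between systems in size was not tested for the list. RPL8 was at 68651 and 78185 in soft IPNs, 41360 and 34573 in stiff IPNs, 68009 and 48342 in soft col:rBM and 58175 and 39692 in stiff col (-0.60 ± 0.21, adjusted p = 0.242). RPLP0 and RPL13A had mean differences of -0.53 and -0.38 (adjusted p = 0.288 and 0.244). Translation factors had 19 of 33 lower (57.6%) and 1 higher (3.03%), with a median of -0.31. Their medians by pair were -0.49 and -0.57 in IPNs but -0.09 and -0.08 in collagen gels. PABPC1, which binds poly(A) tails, was at 59530 and 50259, 40222 and 22616, 56107 and 38064, and 39801 and 33064 (-0.60 ± 0.20, adjusted p = 0.234). The ribosomal scaffold GNB2L1 had a mean difference of -0.61 (adjusted p = 0.254), and the 1 higher gene was EIF4E (0.33, adjusted p = 0.225), the cap-binding factor. Processed pseudogenes of these genes could take or give reads. With equal library sums 22 of 75 ribosomal protein genes and 13 of 33 translation factors were lower, against 873 of all 13369 genes tested.

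**Figure D4:**
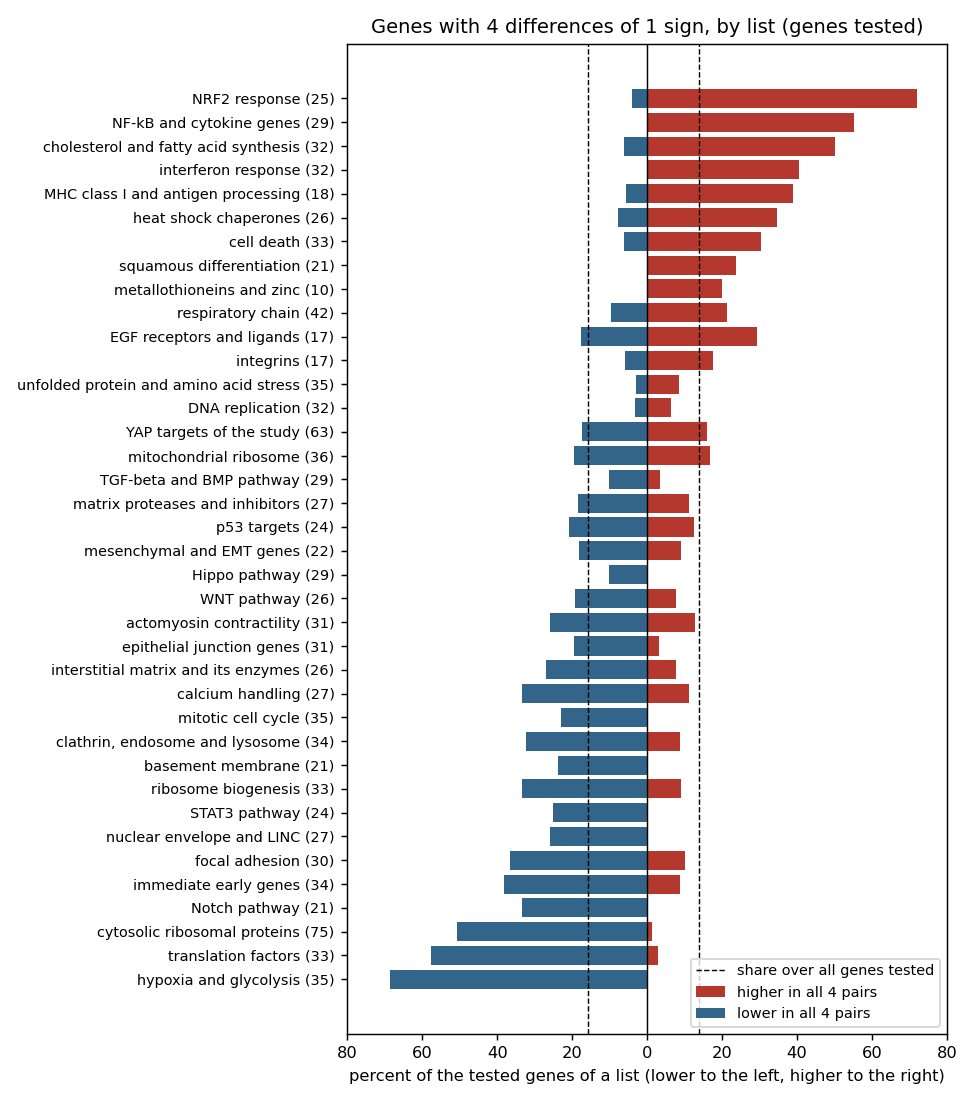
Percent of the tested genes of each list that were higher (right) or lower (left) in all 4 pairs, with the number tested in brackets and dashed lines at the shares over all genes, 13.8% and 15.7%. NRF2, NF-kB and sterol genes stand at the top, and hypoxia, translation and ribosomal protein genes at the bottom.

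Among genes of matrix sensing, focal adhesion genes had 11 of 30 lower and 3 higher (median -0.16), against 15.7% and 13.8% of all genes. With equal library sums 5 focal adhesion genes were lower and 6 higher. PXN, which encodes the adaptor paxillin, was at 8261 and 9461 in soft IPNs, 6589 and 5936 in stiff IPNs, 11557 and 8544 in soft col:rBM and 7694 and 6043 in stiff col. All stiff libraries were below all soft ones (-0.52 ± 0.12, adjusted p = 0.213). PTK2B, a kinase related to focal adhesion kinase, had a mean difference of -0.49 (adjusted p = 0.234). Actomyosin contractility genes had 4 of 31 higher (12.9%) and 8 lower (25.8%, median -0.01), or 5 higher and 3 lower with equal library sums. TAGLN and the myosin light chain MYL9 (1.42 ± 0.59, adjusted p = 0.295) were among the higher ones. MYL9 was at 1292 against 91 in the IPN pair of trial 2 (difference 3.81), and the other differences were 0.50, 0.30 and 1.06. Integrins had 3 of 17 higher (17.6%, against 13.8% of all genes) and 1 lower (5.88%, against 15.7%), ITGB4. Basement membrane genes had 5 of 21 lower (23.8%, against 15.7% of all genes) and 0 higher (median -0.19). The medians by pair were -0.38 and -0.66 in IPNs but 0.05 and -0.06 in collagen gels. With equal library sums 2 were lower, and 1 with the correction for GC content and length, where 1982 of 12989 genes were lower. Among the 5 lower in the main scaling was COL17A1, a hemidesmosomal collagen, without overlap between groups (-0.74 ± 0.15, adjusted p = 0.201).

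For the YAP target list taken from the study, 10 of 63 genes were higher and 11 lower in all 4 pairs, close to the 13.8% and 15.7% of all genes, with a median of -0.01. CTGF was at 71 and 34 in soft IPNs, 91 and 364 in stiff IPNs, 47 and 31 in soft col:rBM and 72 and 102 in stiff col. The stiff values were all above the soft ones, by a margin of 72 to 71, and the mean difference of 1.51 ± 0.48 did not pass (adjusted p = 0.236). CYR61 was of mixed sign, with differences of -0.12 and 1.52 in IPNs and -0.37 and 0.35 in collagen gels. ANKRD1 did not pass the filter on low values, with a highest value of 12. YAP1, WWTR1 (which encodes TAZ), STAT3, EP300 and ITGB2 were all of mixed sign, with mean differences of -0.17, -0.08, -0.02, -0.23 and -0.11. Their adjusted p values lay between 0.402 and 0.902. The Hippo pathway list had 3 of 29 genes lower (10.3%) and 0 higher, and the STAT3 pathway list 6 of 24 lower (25.0%) and 0 higher, against 15.7% and 13.8% of all genes. With equal library sums the Hippo list had 0 lower and 1 higher (median 0.09), the STAT3 list 4 lower and 4 higher (median 0.14), and the YAP target list 6 lower and 19 higher (median 0.15). Of all 13369 genes tested, 873 were then lower and 3648 higher (median 0.16), so the YAP target median was close to that of all genes.

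Immediate early genes had 13 of 34 lower (38.2%, against 15.7% of all genes) and 3 higher (8.82%, against 13.8%), with a median of -0.17. The lower ones included the AP-1 subunit FOSL2 (-0.79 ± 0.22, adjusted p = 0.228) and ZFP36 (-0.63 ± 0.13, adjusted p = 0.206), which destabilizes cytokine transcripts. FOSL1, another AP-1 subunit, had a mean difference of -0.55 (adjusted p = 0.229). The median of this list was -0.01 with equal library sums, and its lower genes then numbered 8. Under that scaling 873 of all 13369 genes tested were lower and 3648 higher, with a median of 0.16. Mitotic genes had 8 of 35 lower (22.9%) and 0 higher, but the pair medians were 0.34 and -0.73 in IPNs and -0.15 in both collagen pairs. With equal library sums 3 were lower and 2 higher, and without the IPN pair of trial 2, 8 were lower and 4 higher in the other pairs. Notch pathway genes had 7 of 21 lower (33.3%) and 0 higher (median -0.17), and with equal library sums 2 were lower and 3 higher. Of the basal markers, KRT5 (-0.49 ± 0.17, adjusted p = 0.241), CDH3 (-0.47 ± 0.12, adjusted p = 0.218), EGFR (-0.57) and ITGB4 were lower and KRT17 (1.14) was higher, of 11 tested. That was 36.4% lower and 9.09% higher.

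The higher and the lower genes differed in a property that the rule did not use. The median GC content of the longest transcript was 41.9% in higher genes, 54.2% in lower genes and 47.8% in all genes tested, with a value for 97.1%, 98.6% and 97.2% of them. In the decile of genes with the lowest GC content, 30.3% were higher and 2.16% lower, and in the decile with the highest, 5.0% and 25.8%. The median difference of the lowest decile was above 0 in each pair (0.23 and 0.20 in IPNs, 0.08 and 0.17 in collagen gels) and that of the highest below 0 (-0.25, -0.03, -0.09 and -0.13). After each library was corrected for GC content and transcript length, 1500 genes were higher and 1982 lower, and in the lowest decile 11.5% and 9.47%. S100A8, S100A9 and SAA1 still passed then (adjusted p = 0.00619, 0.00619 and 0.0104), and the 4 others lay between 0.052 and 0.0903. The corrected differences of these were 1.27 for CSGALNACT1, 1.04 for NFKBIZ, 1.06 for KYNU and 1.08 for BIRC3, against 1.27, 1.05, 1.19 and 1.24 before. With this correction 16 of 29 NF-kB and cytokine genes, 15 of 25 NRF2 genes and 16 of 32 cholesterol genes were higher, and 23 of 35 hypoxia genes and 42 of 75 ribosomal protein genes lower. Other lists moved more: higher genes numbered 6 of 26 for heat shock chaperones (9 before), 7 of 33 for cell death (10 before) and 10 of 18 for MHC class I (7 before). The part of GC content in the response was not tested.

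**Figure D5:**
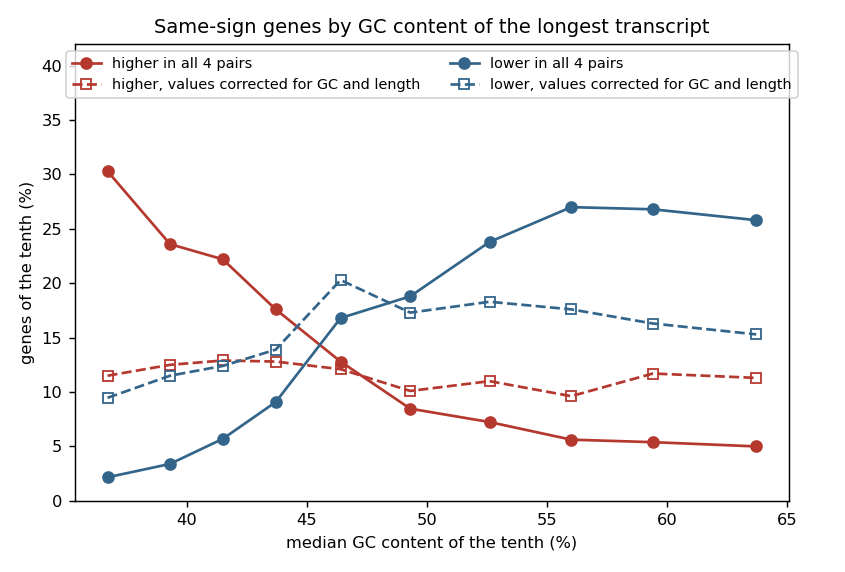
Percent of genes that were higher or lower in all 4 pairs (vertical) in deciles of genes ordered by GC content of the longest transcript (horizontal). Filled points use the deposited values and fall from 30.3% to 5.0% for higher genes, while open squares use values corrected for GC content and length, where the lowest decile holds 11.5% higher and 9.47% lower.

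The lower genes were also more abundant, with a median of 746 normalized counts against 323 for higher genes and 374 for all. Between trials, which is a comparison the stiffness difference does not enter, 27.1% of all genes tested passed, 26.4% of the higher and 31.1% of the lower genes. The median difference of trial 2 minus trial 1 was 0.14 in higher and -0.16 in lower genes. In 17 higher and 10 lower genes each of the 4 differences was at least 1, and in 77 and 77 each was at least 0.5.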

How the data were processed

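RNA-seq of MCF10A cells from 4 gels (8 libraries) was used, with 1 deposited table of 25369 gene symbols, of which 28 had become dates and could not be assigned. The deposited values are a signal, here called normalized counts: reads counted per gene on hg19, divided by the authors by 1 factor per library and rounded. The methods name Bowtie2 and the submitters' processing notes TopHat2 2.0.13 as aligner. The methods state that multimapped and low quality reads were removed, and name HTSeq for counting. The annotation and strandedness of counting are not given in the sources used here. Factors and reads were estimated from whole numbers that recur empty or doubled, the factor of soft IPN replicate 1 only weakly. Sequencing was paired-end, so a counted read may stand for a read pair. The methods state a higher depth of filtered reads than these estimates. The limit of 3 reads covers counting error only.

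Values were transformed to log2(value + 1) and fitted in limma 3.58.1 (R 4.3.3) with the pair (gel system and replicate number) as a block, a variance trend and robust moderation, and adjusted by the Benjamini-Hochberg method over 13369 genes at 0.05. The interpretation of replicate numbers as trials was checked: differences between replicates correlated between all 6 pairs of gels, with r from 0.278 to 0.819. Per-system, difference and trial tests had 1 mean per gel with the trial as a block. The fit was tested on simulated data. As labels do not state separate cultures, p values measure only the spread between these libraries. Changes are on the log2(value + 1) scale, which understates those of low genes.

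Members, lists, tests and the pair block were chosen with earlier results of these data known. Lists were written from general knowledge, except the YAP targets of the study. Some items that the naming rule covers are not reported here. Named genes were taken from the 15 per direction with the largest smallest difference, the called genes (the rule covered 5, and NFKBIZ was added), up to 3 members per list, 4 regulators and canonical targets, and cell markers. Other names (NFKB1, NFKBIA, KEAP1, SREBF1, ACACA, HIF1A and PGBD5 among them) were chosen after seeing values. The GC correction (cubic in GC content and log2 length of the longest GENCODE transcript, per library) and the omission of 1 pair were added after seeing the data, as were a corrected NF-kB motif and 2 further motifs. Symbols were matched to GENCODE 44 on hg19 for 23001 genes (90.7%), 1463 by an older symbol. Tables and plots were made in Python 3.11.15 (numpy 2.4.6, pandas 2.3.3, matplotlib 3.10.9).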

Additional observations from a re-analysis of the deposited data

Results flagged for a closer look

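Among the 73 genes followed through all settings, 4 had 1 paired difference far from the other 3, in each case that of the IPN pair of trial 2. It was 3.54 for LIF (median of the others 1.32), -7.16 for CASP14 (-2.33), 2.15 for IDI1 (0.64) and 0.86 for CYP51A1 (0.34). Chance flags about 1 in 20 groups of 4, and 5.48% of these genes were flagged. The stiffness difference itself differed between gel systems for KRT6B, by -3.48 (collagen minus IPN, adjusted p = 0.0106), and for PGBD5, by -2.99 (adjusted p = 0.0106), with the trial block in limma. KRT6B, a keratin of stressed epithelium, differed by 3.53 in IPNs and 0.05 in collagen gels.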

How the results depend on the processing

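Genes called upwards numbered 7 with the replicate block of pairs, 0 without a replicate block, 42 with the trial as a replicate block, 0 without the variance trend and 3 with the correction for GC content and transcript length. Downwards the counts were 0 in the pair fit, 38 with the trial block and 2 without a filter on low values. Leaving out 1 library gave 0 to 12 upwards and 0 to 2 downwards. The other scalings, pseudocounts and filters gave 7 to 10 upwards. Same-sign genes numbered 3648 higher and 873 lower with equal library sums, against 1848 and 2099, and 491 and 566 when each stiff library was set against both soft libraries of its system. In IPNs 511 genes passed with the trial block, 0 with no replicate block and 0 to 2688 with 1 library left out. In collagen gels 0 passed, or 0 to 30 with 1 library left out, and for the difference between systems 2, 0 without the block, and 0 to 675. The trial effect was called for 3619 genes, and for 1213 to 5845 with 1 library left out. Of 73 named genes, 66 kept their direction in every setting. Most of the 73 were chosen because all their paired differences had 1 sign. Leaving out a library drops its pair, so the mean of such a gene could not turn. The fits with no block or with the trial block return the same mean difference. In these settings the kept direction followed from the choice of genes and does not measure stability. All 7 that turned were of mixed sign. With equal library sums WWTR1 turned to 0.08, STAT3 to 0.14 and ITGB2 to 0.05, and STAT3 to 0.01 with the upper quartile. With the GC correction STAT3 turned to 0.04, ITGB2 to 0.02, NFKB1 to -0.02 and HIF1A to -0.01. With 1 library left out the range was -0.05 to 0.59 for CYR61, -0.19 to 0.07 for WWTR1, -0.28 to 0.13 for ITGB2, 0.0 to 0.3 for NFKB1 and -0.06 to 0.15 for NFKBIA. The cause was not tested in any of these. The pair fit leaves 3 residual degrees of freedom, and depth limits genes near 3 reads.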
